A study of Homo sapiens with 18 samples.

Results

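The NCoR and SIN3 corepressors are protein complexes that remove acetyl groups from histones at the genes to which transcription factors bring them. The genes described here code for 9 of their parts: TBL1XR1, TBL1X, NCOR1, GPS2 and HDAC3 of the NCoR complex, and HDAC1, HDAC2, SIN3A and SIN3B of the SIN3 complex. They were chosen by the function of their proteins, and TBL1XR1 because it is a target of the microRNA miR-130a. They are 9 of 19974 protein-coding genes on chromosomes 1 to 22 and X. A peak was assigned to a gene when at least 1 base of it lay in the gene body or in the 10 kb on either side.

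The peaks come from CUT&RUN, in which an antibody brings a DNA-cutting enzyme to the protein it binds, and the fragments released around that protein are sequenced. The cells were Kasumi-1, an acute myeloid leukaemia line with the t(8;21) translocation, in which RUNX1 (AML1) is fused to RUNX1T1 (ETO), here with a Flag tag on the fusion protein AML1-ETO. Groups of 3 libraries each were made for control and miR-130a knock-down with anti-ETO, with anti-Flag and with mouse IgG, 18 libraries in all, from GFP-positive cells sorted 3 days after transduction. The comparison asks where AML1-ETO lay in each condition. What the control cells were transduced with is not given in the sources used here, and all groups come from the same tagged line. The labels give the same transduction and sorting protocol for both conditions.

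The corepressors matter for this fusion because its ETO part binds NCoR, SIN3 and histone deacetylases and so can turn a RUNX1 site from activation to repression. NCOR1 is the scaffold of its complex, HDAC3 the enzyme, GPS2 a small core subunit, and TBL1X and TBL1XR1 closely related subunits with WD40 repeats that link the complex to chromatin and to the ubiquitin system. SIN3A and SIN3B are the alternative scaffolds of the SIN3 complex, which carries HDAC1 and HDAC2 as its enzymes. Peaks at these genes say where the fusion was called, not how much of each protein was made.

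Only positions were analysed. There was 1 list per antibody and condition, with no height, score or value per library, so no spread between libraries and no test between conditions could be computed. The control and knockdown anti-ETO lists held 14264 and 22594 peaks, and the anti-Flag lists 23162 and 25961. The authors' derived lists hold peaks of both antibodies, split into 8731 shared by the conditions, 3059 control-unique and 4617 knockdown-unique. A count below is set beside the share of all protein-coding genes with a peak in the same list, since the lists differ in how many genes they reach. The depth behind each call is unknown, no IgG list was used, and the identity of the cells cannot be checked against RNA markers from positions.

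All 9 genes had a peak in at least 1 of the 4 lists made with 1 antibody, as did 58.4% of protein-coding genes. The genes fell into 2 sets. GPS2, HDAC3, HDAC1, HDAC2 and SIN3A had peaks in all 4 lists, which 37.3% of protein-coding genes did. No control peak but a knockdown peak was found at TBL1XR1 and TBL1X, 2 of the 9 (5.36%). TBL1XR1, TBL1X, NCOR1 and SIN3B had peaks in 1 or 2 lists, and no peak called by both antibodies in either condition. GPS2, the 3 deacetylase genes and SIN3A had two-antibody peaks in both conditions, but with the flanks left out shared peaks were found at 2 genes in place of 5. No share of all protein-coding genes is set beside the count with peaks in 1 or 2 lists, or beside the count without flanks.

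**Figure D1:**
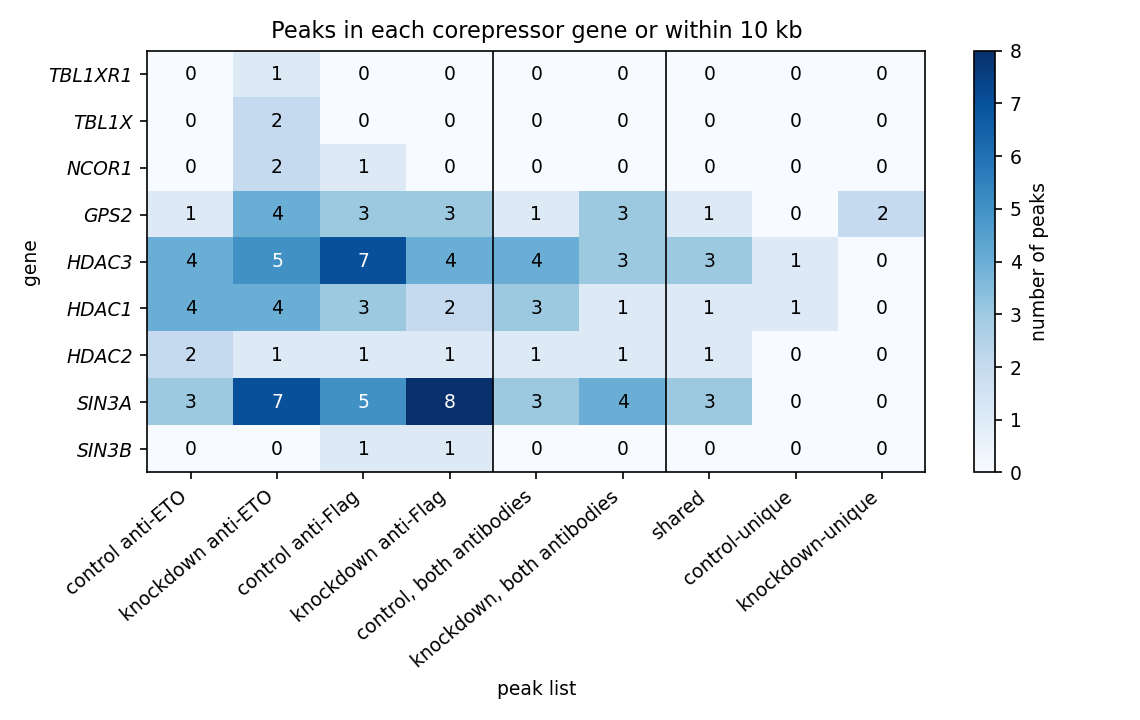
Number of peaks (cell values and colour) in the gene body or within 10 kb for each of the 9 corepressor genes (rows) in each of the 9 deposited lists (columns). TBL1XR1, TBL1X, NCOR1 and SIN3B are at 0 in the 5 lists built from both antibodies, and the highest count is 8, for SIN3A in the knockdown anti-Flag list.

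By list, 5 of the 9 genes had a control anti-ETO peak (47.6% of protein-coding genes did) and 8 had a knockdown anti-ETO peak (53.8%). A control anti-Flag peak was found at 7 genes (50.2%) and a knockdown anti-Flag peak at 6 (42.2%). As shares of 9, these 4 counts lay above the background, by least in the control anti-ETO list and by most in the knockdown anti-ETO list, where SIN3B alone lacked a peak. Two-antibody peaks were found at 5 genes in control (43.8% of protein-coding genes) and at the same 5 in knockdown (39.4%). Those 5 also had a shared peak (35.1%). A control-unique peak was found at HDAC3 and HDAC1 (16.9% of protein-coding genes) and a knockdown-unique peak at GPS2 alone (18.4%), counts of 2 and 1 in 9 that are near the background.

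**Figure D2:**
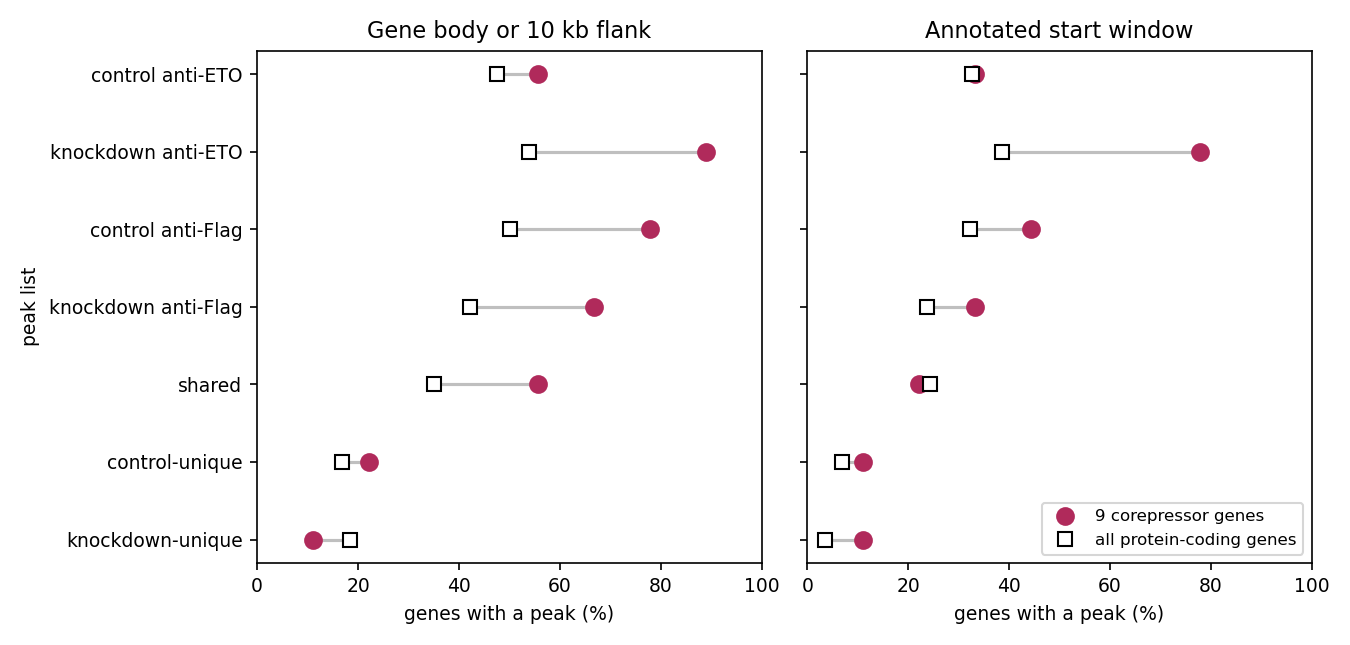
Percent of the 9 corepressor genes (filled circles) and of all protein-coding genes (open squares) with a peak in each list, for the gene body with 10 kb flanks (left) and for annotated start windows (right). The widest gap is in the knockdown anti-ETO list, 88.9% against 53.8% on the left and 77.8% against 38.7% on the right.

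To show sequence next to the starts, the 250 bases before the start are given, 5′ to 3′ on the strand of the gene (RefSeq, GRCh38.p14). They stand for the miR-130a target TBL1XR1, for NCOR1 and GPS2, with an anti-ETO call on the start in knockdown alone, for HDAC3, with the anti-Flag call in control alone, for HDAC2, called in all 4 lists, and for the internal start of SIN3B. The start used for TBL1XR1 is internal too. Capitals mark matches on either strand to the RUNX core TGTGGT or TGCGGT, to the ETS motif CCGGAAG or to the E-box CAGCTG. No matches overlap. G and C made up 81.2% of the TBL1XR1 stretch and 42.8% of the SIN3B stretch.
TBL1XR1 (chr3:177197483-177197732, minus strand): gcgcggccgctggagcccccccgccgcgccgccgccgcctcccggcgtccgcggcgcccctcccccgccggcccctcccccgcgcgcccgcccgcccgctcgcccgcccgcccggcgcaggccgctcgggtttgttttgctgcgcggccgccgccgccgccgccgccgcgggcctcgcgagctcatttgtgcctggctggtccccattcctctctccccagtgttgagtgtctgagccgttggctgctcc
NCOR1 (chr17:16215535-16215784, minus strand): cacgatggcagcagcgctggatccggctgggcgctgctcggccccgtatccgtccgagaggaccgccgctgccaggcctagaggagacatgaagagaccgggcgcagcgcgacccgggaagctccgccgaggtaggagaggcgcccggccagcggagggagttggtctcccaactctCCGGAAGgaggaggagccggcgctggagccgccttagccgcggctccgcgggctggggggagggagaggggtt
GPS2 (chr17:7315361-7315610, minus strand): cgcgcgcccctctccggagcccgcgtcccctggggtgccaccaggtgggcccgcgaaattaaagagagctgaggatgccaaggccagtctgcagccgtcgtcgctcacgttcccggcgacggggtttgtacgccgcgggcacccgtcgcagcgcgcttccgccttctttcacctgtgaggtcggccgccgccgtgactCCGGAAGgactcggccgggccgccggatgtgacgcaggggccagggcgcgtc
HDAC3 (chr5:141636850-141637099, minus strand): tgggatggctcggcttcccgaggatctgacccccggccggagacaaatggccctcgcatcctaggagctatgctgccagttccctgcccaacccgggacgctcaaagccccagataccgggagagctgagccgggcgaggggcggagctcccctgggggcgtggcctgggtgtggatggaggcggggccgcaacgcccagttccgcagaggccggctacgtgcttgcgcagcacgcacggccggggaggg
HDAC2 (chr6:113971149-113971398, minus strand): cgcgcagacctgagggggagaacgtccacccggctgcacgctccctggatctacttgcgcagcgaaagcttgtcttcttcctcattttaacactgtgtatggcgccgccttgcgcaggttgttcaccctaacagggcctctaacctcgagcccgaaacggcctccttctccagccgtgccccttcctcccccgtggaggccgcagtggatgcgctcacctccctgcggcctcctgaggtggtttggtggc
SIN3B (chr19:16863024-16863273, plus strand): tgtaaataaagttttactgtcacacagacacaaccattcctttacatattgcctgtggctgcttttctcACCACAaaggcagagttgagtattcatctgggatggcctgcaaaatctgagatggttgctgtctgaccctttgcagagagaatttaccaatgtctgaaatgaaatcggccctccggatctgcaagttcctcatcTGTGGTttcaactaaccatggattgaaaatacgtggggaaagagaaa

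TBL1XR1, the miR-130a target, lies on the minus strand of chromosome 3 (177019344 to 177201800, GRCh38) and is 182 kb long. It had 1 peak in the knockdown anti-ETO list and 0 in the control anti-ETO, control anti-Flag and knockdown anti-Flag lists. That peak spans 177198076 to 177198552, 477 bp, inside the annotated gene and 594 bp upstream of the first of 2 starts in the RefSeq promoter table. Both starts are internal, and the outer end of the gene, at 177201800, was not among the starts used. Its width is above 53.0% of the knockdown anti-ETO list, so it is a peak of middling width. In control, the anti-ETO peak nearest to that start was 160655 bp away and the nearest anti-Flag peak 159804 bp away, both outside the window of the gene. In knockdown the nearest anti-Flag peak was 1949433 bp away. The call at TBL1XR1 therefore rests on 1 antibody in 1 condition.

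TBL1X, the paralogue on chromosome X (9463295 to 9719740, plus strand, 256 kb), showed the same pattern. It had 2 knockdown anti-ETO peaks and none in the other 3 lists. The first (9464926 to 9465185, 260 bp) covers the second of 2 annotated starts, at 9465058, and the second (9465458 to 9465640, 183 bp) lies 400 bp beyond that start. These are narrow peaks, wider than 18.0% and 3.92% of their list. A pattern of knockdown anti-ETO peaks alone was found at 705 protein-coding genes, 3.53%, and at TBL1XR1 and TBL1X among the 9. Chromosome X carried fewer calls than the genome: of its 848 protein-coding genes, 28.1% had a control anti-ETO, 30.9% a knockdown anti-ETO, 26.3% a control anti-Flag and 17.9% a knockdown anti-Flag peak. Peaks of both antibodies were found at 22.9% of them in control and 17.1% in knockdown.

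NCOR1 lies on the minus strand of chromosome 17 (16029157 to 16215534, 186 kb). It had 0 control anti-ETO, 2 knockdown anti-ETO, 1 control anti-Flag and 0 knockdown anti-Flag peaks. One knockdown anti-ETO peak (16215329 to 16215513, 185 bp) begins 21 bp inside the gene from its main start. The other (16217032 to 16217340) overlaps the control anti-Flag peak (16217048 to 16217341), and both cover the start of PIGL, an enzyme gene that runs in the opposite direction 1498 bp or more upstream. The site called by both antibodies, in different conditions, thus lies at the start of the neighbour, and the site at the start of NCOR1 has an anti-ETO call in knockdown alone.

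TBL1XR1, TBL1X and NCOR1 are all over 100 kb long. Genes of that length had a peak less often than all protein-coding genes in each of the 4 lists made with 1 antibody. The shares of all genes were 47.6% and 53.8% for control and knockdown anti-ETO, and 50.2% and 42.2% for anti-Flag. Of the 3351 protein-coding genes over 100 kb, 41.0% had a two-antibody peak in control and 31.7% in knockdown, against 0 of these 3. All 3 had knockdown anti-ETO peaks (48.6% of long genes), none a control anti-ETO peak (45.4%), 1 a control anti-Flag peak (45.8%) and none a knockdown anti-Flag peak (33.3%). Shared, control-unique and knockdown-unique peaks were found at 29.4%, 19.7% and 10.4% of long genes and at 0 of the 3. Knockdown anti-ETO peaks alone were found at 3.52% of long genes. In all 3 genes the peaks lay near an annotated start, and the rest of each gene body was empty in all 4 lists.

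GPS2 is the shortest of the genes, 2.7 kb on the minus strand of chromosome 17 (7312661 to 7315360). It had 1 control anti-ETO, 4 knockdown anti-ETO, 3 control anti-Flag and 3 knockdown anti-Flag peaks. Its own start at 7315360 was covered by a control anti-Flag peak (7315168 to 7315637) and by a knockdown anti-ETO peak (7314571 to 7315598, 1028 bp, wider than 83.3% of that list). The knockdown anti-Flag peak there (7314578 to 7314955) lies 405 bp inside the gene and does not reach the control anti-Flag peak. The control anti-ETO list had no peak nearer to the start than 7877 bp. In knockdown the overlapping anti-ETO and anti-Flag peaks gave the first of the 2 knockdown-unique peaks of GPS2, which reaches the start through its anti-ETO peak. The second (7324147 to 7324580) lies 8787 bp upstream in NEURL4 and had the same calls: both knockdown lists and control anti-Flag, not control anti-ETO. The site in all 4 lists (7306677 to 7307483) covers a start of the translation factor gene EIF5A.

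HDAC3 lies on the minus strand of chromosome 5 (141620881 to 141636849, 16.0 kb). It had 4 control anti-ETO, 5 knockdown anti-ETO, 7 control anti-Flag and 4 knockdown anti-Flag peaks. Its start, which the start of RELL2 faces within the same site, was covered by a control anti-ETO peak (141636663 to 141637178), a knockdown anti-ETO peak (141636663 to 141637145) and a control anti-Flag peak (141636137 to 141637170). The nearest knockdown anti-Flag peak was 16165 bp away. The anti-ETO calls of both conditions begin at the same base and are 516 bp and 483 bp wide. This is the control-unique peak of HDAC3 (141636137 to 141637178, 1042 bp, wider than 95.9% of that list), and what it lacks in knockdown is the anti-Flag call. The 3 shared peaks assigned to HDAC3, from 141616274 to 141620684, lie downstream of the gene around the start of DIAPH1, which codes for an actin-nucleating formin. The first of these covers 745 bp, the second 1642 bp and the third 1437 bp, and all 4 lists have calls in each. The 1 site wholly within HDAC3 away from its start (141623514 to 141623931) had a control anti-Flag call alone.

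HDAC1 lies on the plus strand of chromosome 1 (32292083 to 32333626, 41.5 kb). It had 4 control anti-ETO, 4 knockdown anti-ETO, 3 control anti-Flag and 2 knockdown anti-Flag peaks. Only 1 of these was in the gene: a knockdown anti-ETO peak (32292052 to 32292273, 222 bp) that covers the start and is wider than 13.4% of its list. All other peaks lie downstream, at and beyond MARCKSL1, which codes for a calmodulin-binding membrane protein. The shared peak there (32336401 to 32338227, 1827 bp) lies 168 bp from the start of MARCKSL1. In this span the control anti-ETO list had 3 peaks of 180, 611 and 386 bp, and the knockdown anti-ETO list had 1 peak of 1721 bp. For anti-ETO the knockdown thus had fewer peaks and more covered bases there. Anti-Flag had 2 peaks in each condition, of 762 and 398 bp in control and of 757 and 174 bp in knockdown. The control-unique peak (32339480 to 32339926) had control calls by both antibodies and in knockdown was called by anti-ETO but not by anti-Flag, like the start of HDAC3.

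HDAC2 lies on the minus strand of chromosome 6 (113933028 to 113971148, 38.1 kb). Its 1 merged site (113970519 to 113971650) covers its start and was called in all 4 lists, with 2 control anti-ETO peaks and 1 in each other list. The peaks over the start were 663 bp in control anti-ETO, 754 bp in knockdown anti-ETO, 652 bp in control anti-Flag and 384 bp in knockdown anti-Flag. HDAC2 was the only gene of the 9 with fewer anti-ETO peaks and fewer covered anti-ETO bases in knockdown, 754 bp against 873 bp. The antisense transcript HDAC2-AS2 overlaps this site, and positions do not tell the genes apart.

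SIN3A had the most peaks of the 9 genes in both knockdown lists, and HDAC3 had more in both control lists. It lies on the minus strand of chromosome 15 (75369379 to 75455815, 86.4 kb) and had 3 control anti-ETO, 7 knockdown anti-ETO, 5 control anti-Flag and 8 knockdown anti-Flag peaks. As many or more were found at 13.7%, 4.96%, 10.9% and 6.94% of protein-coding genes. Most lay around its 2 annotated starts, 75455815 and 75451690. One merged site of 5264 bp (75451757 to 75457020) spans the upstream start and the first part of the gene and was called in all 4 lists. Within it, the control anti-ETO peak (75451757 to 75455087, 3331 bp, wider than 99.8% of its list) stops 728 bp short of the upstream start. The knockdown anti-ETO peak at that place (75454288 to 75456426, 2139 bp) covers it, as do the control anti-Flag (75455616 to 75456608) and knockdown anti-Flag (75455421 to 75456290) peaks. A second site in all 4 lists (75450143 to 75451181) lies 509 bp from the downstream start. The third (75367730 to 75369219) lies beyond the end of SIN3A and covers the start of MAN2C1, a mannosidase gene. Covered bases in the anti-ETO lists were 5662 in control and 7660 in knockdown, and in the anti-Flag lists 6042 and 5726.

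SIN3B, the other scaffold, had fewer peaks than SIN3A in each of the 4 lists. It lies on the plus strand of chromosome 19 (16829398 to 16880349, 51.0 kb) and had no anti-ETO peak in either condition. Its 1 control anti-Flag peak (16888644 to 16888960) lies 8295 bp past its end and 39 bp from the start of F2RL3, a thrombin receptor gene. Its 1 knockdown anti-Flag peak (16862992 to 16863189, 198 bp) lies 85 bp upstream of an internal start at 16863274. The start at the outer end of SIN3B was not analysed here, because it is not among the entries of the promoter table that were used. The calls of control and knockdown were thus at different places, and neither has a call by the other antibody.

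**Figure D3:**
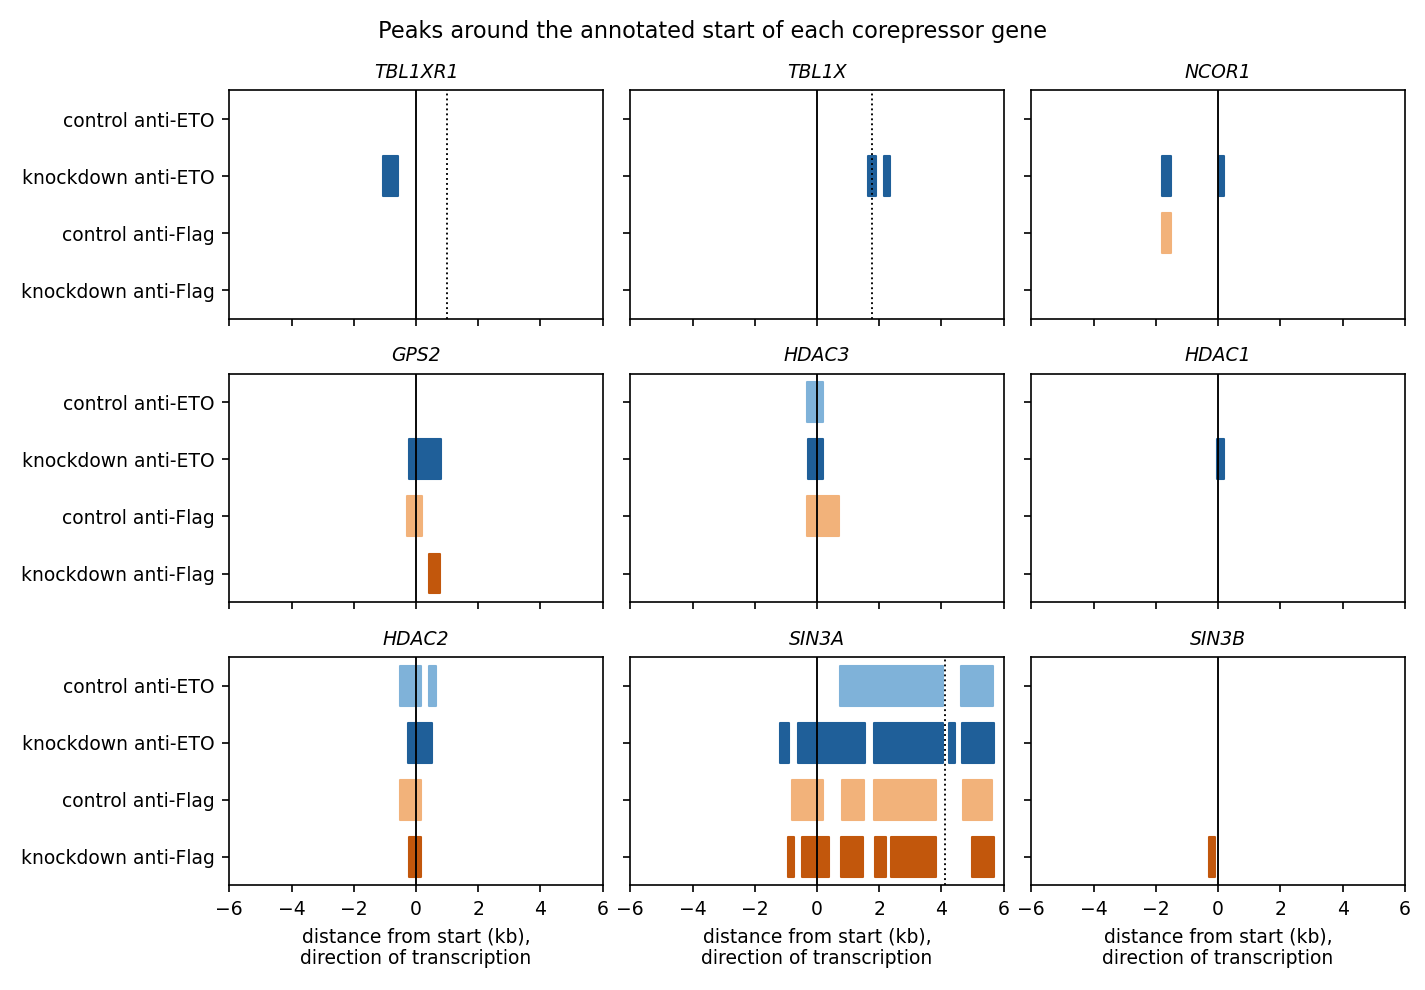
Peaks (bars) of the 4 lists made with 1 antibody within 6 kb of the most upstream start of each gene in the promoter table. A solid line marks that start and dotted lines further starts, with x the distance in kb in the direction of transcription. For TBL1XR1 and SIN3B the solid line is an internal start. Anti-ETO bars lie on a start in both conditions at HDAC3, HDAC2 and SIN3A and in knockdown alone at TBL1X, NCOR1, GPS2 and HDAC1.

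Peaks on the starts were counted separately. A start window was taken as the stretch from 250 bases before to 50 after an annotated start, and 15812 protein-coding genes have at least 1. Control anti-ETO peaks overlapped a start window at 3 of the 9 genes, HDAC3, HDAC2 and SIN3A (32.6% of genes with a window). Knockdown anti-ETO peaks did so at 7, these 3 with TBL1X, NCOR1, GPS2 and HDAC1 (38.7%). Control anti-Flag peaks did so at 4, GPS2, HDAC3, HDAC2 and SIN3A (32.3%), and knockdown anti-Flag peaks at 3, HDAC2, SIN3A and SIN3B (23.8%). The start was called by anti-ETO in knockdown and not in control at 4 genes (8.02% of genes with a window) and the reverse at 0 (1.88%). For anti-Flag the start was called in knockdown alone at 1 gene, SIN3B (1.9%), and in control alone at 2, GPS2 and HDAC3 (10.4%). A start was called by knockdown anti-ETO and no other list at 3 genes, TBL1X, NCOR1 and HDAC1 (4.55%).

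At least 1 of the 4 lists reached a start window of 8 of the 9 genes (42.1%), all but TBL1XR1, and all 4 lists reached those of HDAC2 and SIN3A (20.8%). The outer ends of TBL1XR1 and SIN3B were not among the starts used. Intervals of the authors' two-antibody lists overlapped a start window at 3 genes in control (30.0%) and 3 in knockdown (26.5%): HDAC2 and SIN3A in both, with HDAC3 in control and GPS2 in knockdown. Such an interval can reach a start through 1 antibody, as at GPS2 in knockdown and at the downstream start of SIN3A in control, where the nearest anti-Flag peaks were 405 and 314 bp away. Shared peaks did so at 2 (24.3%), a control-unique peak at 1, HDAC3 (6.82%), and a knockdown-unique peak at 1, GPS2 (3.43%).

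Of the 4 starts called by anti-ETO in knockdown alone, 3 rested on narrow peaks. With the knockdown anti-ETO list cut to the 14264 widest peaks, the length of the control list, 4 of the 9 starts were called in place of 7: GPS2, HDAC3, HDAC2 and SIN3A. The peaks at TBL1X, NCOR1 and HDAC1 were narrower than the 381 bp of the narrowest peak kept, and dropped out. The TBL1XR1 peak and the GPS2 start remained. When the centre of the peak had to lie in the window, anti-ETO called 2 starts in control and 2 in knockdown, and anti-Flag 2 and 3, so that the anti-ETO difference was gone and the anti-Flag one turned. No share of all genes with a window is set beside the counts under these settings. Whether starts of other genes dropped out as often was not tested.

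**Figure D4:**
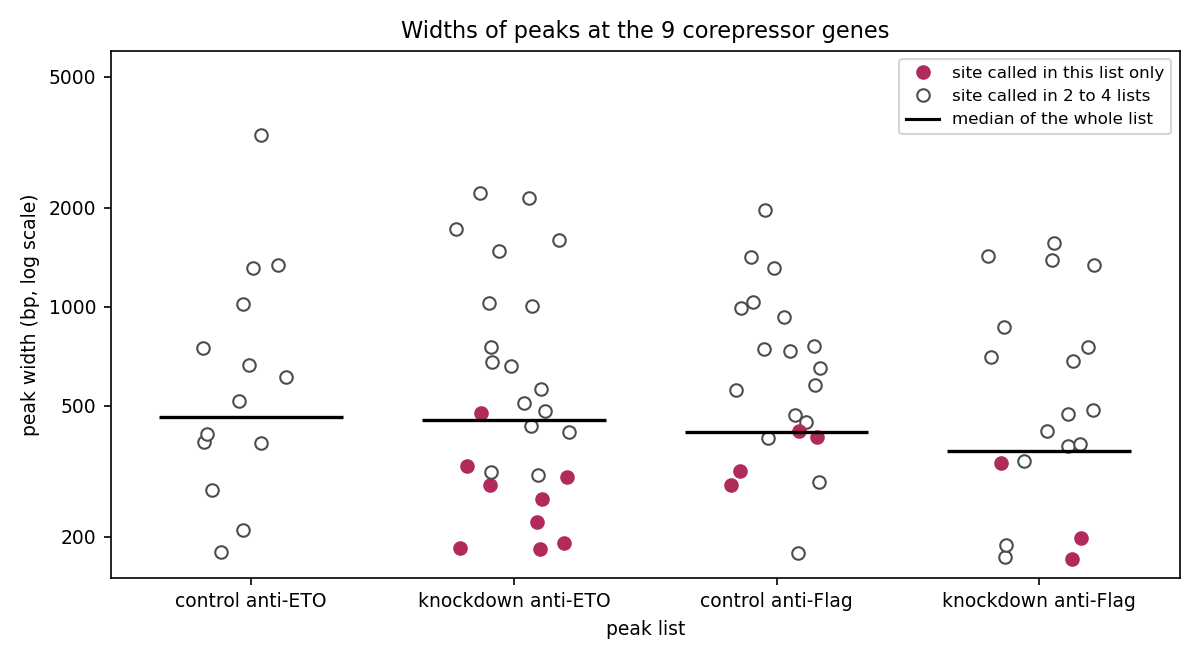
Width in bp (log scale) of each peak assigned to the 9 genes, by list, with filled points for sites called in that list alone, open points for sites called in 2 to 4 lists, and a bar at the median width of the whole list. The peaks at the 9 sites called by knockdown anti-ETO alone are 183 to 477 bp wide, and only the widest, at TBL1XR1, is above the list median of 453 bp.

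The promoter table held 13 starts of the 9 genes. A RUNX core was present in 3 of these 13 stretches, against 16.3% of all 34961 stretches of the same length in the table. These were the internal start of SIN3B with 2 matches, the first start of TBL1X and the second start of NCOR1. Of these 3, a peak overlapped the start window at SIN3B alone, in the knockdown anti-Flag list. The ETS motif was present in 2 stretches, the main start of NCOR1 and the start of GPS2 (8.52% of all stretches). Both of these starts were called by anti-ETO in knockdown and not in control, as were starts of TBL1X, HDAC1 and SIN3A without the motif. The NCOR1 peak lies inside the gene and does not cover its match, 73 bp before the start. A link between the motif and the calls was not tested. The E-box was in none of the 13 (14% of all). Of the stretches of protein-coding genes, 15.6% held a RUNX core, 10.7% the ETS motif and 13.7% the E-box. The HDAC2, HDAC3 and TBL1XR1 stretches held no match to the letters searched. Matches describe letters, not bound sites.

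Merging overlapping peaks of the 4 lists gave 30 sites at the 9 genes, of 35622 in all. HDAC3 had 8, SIN3A 6, GPS2 and HDAC1 4 each, TBL1X, NCOR1 and SIN3B 2 each, and TBL1XR1 and HDAC2 1 each. In the gene bodies alone SIN3A had 5, HDAC3 and TBL1X 2 each, and the other 6 genes 1 each. All 4 lists called 9 of the 30 sites (30.0%, against 24.8% of all sites), and exactly 1 list called 16 (53.3%, against 44.3%). Knockdown anti-ETO alone called 9 (30.0%, against 10.3%), knockdown anti-Flag alone 3 (22.3% of all), control anti-Flag alone 4 (13.3%, against 10.2%) and control anti-ETO alone 0 (1.4% of all). These sites are not independent, since several share a gene. The 2 sets are unlike: the 35622 sites include those far from any gene, and the 30 lie in or within 10 kb of a gene.

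The place of each kind of site is given for these 9 genes only, with no share over all sites to set beside it. Of the 9 sites called in all 4 lists, 3 had a start of the assigned gene as the nearest annotated start, 1 at HDAC2 and 2 at SIN3A. The other 6 were nearest to EIF5A, DIAPH1 (3 sites), MARCKSL1 and MAN2C1. Of the 9 sites called by knockdown anti-ETO alone, 7 had a start of the assigned gene nearest, and 6 lay within 1 kb of it. These were at TBL1XR1, TBL1X (2 sites), NCOR1, HDAC1 and SIN3A. The sites of all 4 lists had a median width of 1437 bp after merging, and those of knockdown anti-ETO alone 260 bp. These widths are not like for like, since the former join at least 1 peak of each list and the latter are 1 peak each. Over all 30 sites, 14 were nearest to the assigned gene and 16 to another. Most of the two-antibody calls assigned to GPS2, HDAC3 and HDAC1 thus lay nearest to the starts of neighbouring genes.

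The Flag tag and ETO are parts of the same fusion protein, and the lists of their antibodies differed in opposite directions at these genes. Covered anti-ETO bases were more in knockdown at 7 of the 9 genes (47.4% of protein-coding genes) and fewer at 1 (8.03%), in total 11396 bp in control against 18724 bp in knockdown. Covered anti-Flag bases were more in knockdown at 1 gene, GPS2 (17.5%), and fewer at 6 (35.0%), with 14894 bp and 12278 bp in total. The numbers of peaks gave 6 genes with more and 1 with fewer for anti-ETO (32.4% and 5.05% of protein-coding genes), and 1 with more and 3 with fewer for anti-Flag (18.7% and 21.8%). The protein-coding genes as a whole also had more covered bases in knockdown more often than fewer for anti-ETO, and the reverse for anti-Flag. Covered lengths of the whole lists went the same ways: 8.97 Mb in control and 15.0 Mb in knockdown for anti-ETO, 13.5 Mb and 13.2 Mb for anti-Flag. Numbers of peaks in the whole lists were higher in knockdown for both antibodies, 14264 and 22594 for anti-ETO and 23162 and 25961 for anti-Flag. The part of these whole-list differences in the values at the 9 genes was not tested. The anti-Flag difference in genes with a peak, 7 against 6, was gone in the gene bodies alone, where it was 4 and 4.

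**Figure D5:**
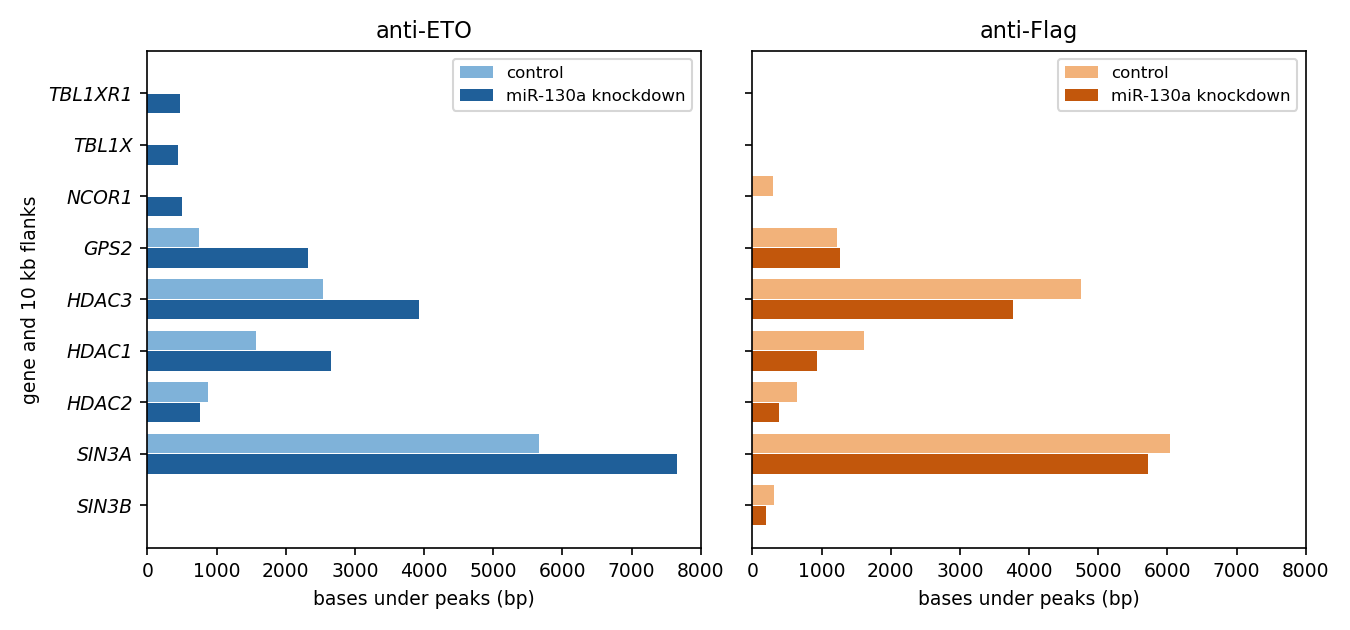
Bases under peaks (bp) in each gene and its 10 kb flanks for anti-ETO (left) and anti-Flag (right), with pale bars for control and dark bars for miR-130a knockdown. Dark bars are longer than pale ones at 7 genes for anti-ETO, and shorter at 6 genes for anti-Flag, HDAC3 among them with 4756 bp against 3769 bp.

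The other genes of these complexes were taken from a list of 43: 3 more NCoR subunits or partners, 15 of SIN3, 10 of NuRD, 7 of CoREST and 8 further histone deacetylases. NuRD and CoREST are other complexes that hold HDAC1 and HDAC2. Of the 43 genes, 35 had a control anti-ETO peak (47.6% of protein-coding genes) and 36 a knockdown anti-ETO peak (53.8%). A control anti-Flag peak was found at 36 (50.2%) and a knockdown anti-Flag peak at 32 (42.2%). These shares of 43 lay above the background, and above those of the 9 genes in each list but knockdown anti-ETO. A two-antibody peak was found at 34 in control (43.8%) and 31 in knockdown (39.4%), a control-unique peak at 12 (16.9%) and a knockdown-unique peak at 14 (18.4%). All 7 CoREST genes and 9 of the 10 NuRD genes had peaks in all 4 lists, as did 37.3% of protein-coding genes. The counts were 9 of 15 SIN3 genes, 1 of 3 NCoR genes and 6 of 8 deacetylases. The genes without a peak in any of the 4 lists were ZBTB33, SAP30L, SAP18, HDAC8 and HDAC9 (58.4% of protein-coding genes had a peak in at least 1).

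Over these 43 and the other 8 of the 9 genes, 51 in all, the genes with the same presence or absence as TBL1XR1 in 4 of 4 lists were TBL1X and RBBP7. This count of 2 in 51 is near the background, since 3.53% of protein-coding genes had the pattern. RBBP7 codes for a histone-binding subunit of SIN3 and NuRD and lies on chromosome X, like TBL1X. Its 1 knockdown anti-ETO peak also overlapped a start window. A further 7 genes matched in 3 lists: the 5 genes without peaks, NCOR1, which differs by its control anti-Flag peak, and ARID4A, which differs by its control anti-ETO peak.

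The paralogous scaffolds SIN3A and SIN3B differed in the shared list too, with 3 shared peaks against 0.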

How the data were processed

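Peak lists of CUT&RUN libraries with anti-ETO and anti-Flag in control and miR-130a knockdown Kasumi-1 cells were analysed, 9 files in all. Per the file contents as deposited, each holds chromosome, start and end with no score, and no file gives values per library. The submitters' processing notes name fastp 0.19.5, Bowtie2 2.3.5, MACS2 2.2.5 and HOMER 4.8 and the builds hg38 and sacCer3, without roles. Thresholds, use of IgG and pooling of libraries are not given in the sources used here. Per the labels' protocols, each condition took 200000 sorted cells, and about 40 M reads of 75 bp were planned per library. Gene positions, promoters and symbols came from RefSeq (GRCh38.p14), and all 9 symbols matched both tables. Positions count from 1.

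Overlaps of at least 1 bp were counted with Python 3.11.15, numpy 2.4.6 and pandas 2.3.3, and functions passed 9 of 9 checks on simulated lists. No test was run. The 9 genes are all named; other genes are named where they overlap or lie nearest to a peak, or match TBL1XR1 in all 4 lists, and ARID4A and the genes without peaks were picked after their values were seen. The members and lists were chosen with earlier results of these data known, and the start-window counts after the lists were seen. Of the list of other corepressor genes, 1 is not reported here. Alternatives were other flanks, peak centres, shortened lists and rebuilt derived lists.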

Additional observations from a re-analysis of the deposited data

Results flagged for a closer look

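The antibodies differed in opposite directions at these genes, as they did in covered length over the whole lists. This was not tested, since each antibody has 1 list per condition. Genes with a peak on a start window were 4 more in knockdown for anti-ETO (3 in control, 7 in knockdown) and -1 for anti-Flag (4 and 3), beside 32.6% and 38.7% of all genes with a window for anti-ETO and 32.3% and 23.8% for anti-Flag. Genes with a peak in the body or flanks were 3 more for anti-ETO (5 and 8) and -1 for anti-Flag (7 and 6), beside 47.6% and 53.8% of protein-coding genes for anti-ETO and 50.2% and 42.2% for anti-Flag. Covered bases at the 9 genes differed by 7328 bp for anti-ETO (11396 and 18724) and by -2616 bp for anti-Flag (14894 and 12278). The whole lists covered 8.97 and 15.0 Mb for anti-ETO, and 13.5 and 13.2 Mb for anti-Flag. By number of peaks the whole lists were longer in knockdown for both, 14264 and 22594 for anti-ETO and 23162 and 25961 for anti-Flag. The opposite direction was lost under some settings. With peak centres, starts were 2 and 2 for anti-ETO and 2 and 3 for anti-Flag. A start window of 1 kb either side gave 3 and 8 for anti-ETO and 4 and 4 for anti-Flag. Genes with an anti-Flag peak were 4 and 4 in gene bodies alone, 6 and 6 with 5 kb flanks, and 5 and 5 with the wider 50% of each list or with all lists at the shortest length.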

How the results depend on the processing

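Positions alone set the limits here: without read numbers or libraries, a call close to the threshold cannot be told from a strong one. No paired analysis was possible because the lists carry no value per library, and leaving out each replicate was not run for the same reason. Of 85 recomputed counts of genes or sites, 64 stayed within 1.5 times their value. Of 63 recounts of sites per gene, 37 did and 26 did not, and HDAC3 ranged from 2 in the gene body to 15 with 50 kb flanks. The counts of genes or sites that moved further follow. With the gene body alone, a peak was found at 3 genes for control anti-ETO, 4 for control anti-Flag, 2 in the shared and 1 in the control-unique list, and 15 sites remained. A flank of 5 kb left 1 gene with a control-unique peak, and one of 50 kb gave 54 sites. With peak centres, start windows were called at 2 genes for control and 2 for knockdown anti-ETO, 2 for control and 3 for knockdown anti-Flag, 1 for shared, and 0 for control-unique and knockdown-unique peaks. Keeping the wider 50% of each list gave 15 sites and 4 starts for knockdown anti-ETO. Shortening the knockdown lists gave 4 starts for knockdown anti-ETO, and 4 lists of the shortest length gave 4 starts and 16 sites. Rebuilding the derived lists with 1 bp or 50% overlap gave 2 genes with a knockdown-unique peak (GPS2 with SIN3A or HDAC3), and with 50% overlap 0 starts in the control-unique and 0 in the knockdown-unique list. A start window of 1 kb either side, added after the data were seen, put TBL1XR1 among the starts called by knockdown anti-ETO, 8 in all.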
